A study of Mus musculus with 12 samples.

Results

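The transcripts of the oocyte linker histone H1foo and of 9 genes for nucleosome chaperones (Npm1, Npm2, Nasp, Nap1l1, Nap1l4, Hira, Asf1a, Asf1b and Chaf1a) were followed in mouse oocytes with and without Zar1 and Zar2. These 10 genes were taken by name from a table of 23230 genes, and all 10 were among the 11502 genes with at least 1 FPKM (a read density scaled to transcript length and library size) in at least 1 library. WT and Zar1/2-null females gave oocytes at 3 stages, growing, fully grown with a germinal vesicle (GV), and ovulated (MII), and each of the 6 groups had 2 libraries made from 10 oocytes each, to learn how loss of the RNA-binding proteins ZAR1 and ZAR2 alters the maternal transcriptome. All mice were C57BL6/ICR hybrids. Growing oocytes came from females of 13.5 days according to the labels, where the study's methods give another age, and GV oocytes from females of 21 days at 44 h after PMSG, the hormone that stimulates follicle growth. MII oocytes were collected 16 h after hCG, the hormone that triggers ovulation, and were therefore defined by time and not by the stage of each oocyte. The study reports that ovulated oocytes of the mutant females were arrested in metaphase or telophase of the first meiotic division. MII is therefore used below as the name of a collection time in both genotypes. Genotype and meiotic stage were not separated at that time in these libraries. In the study, RT-qPCR found the degradation of selected mRNAs unaffected in WT oocytes arrested in meiosis I with nocodazole. For the 10 genes the part of stage in the MII differences was not tested. In the Zar1/2-null animals the genes were mutated in the whole body by CRISPR with small deletions near the start codons, so that their transcripts can still be made and read.

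Nucleosomes are built from an H3-H4 tetramer and H2A-H2B dimers and are closed by a linker histone, and chaperones carry each of these histones to and from DNA. The oocyte stores both the mRNAs and the proteins of this machinery, since after fertilization the sperm genome has to exchange its protamines for maternal histones. H1foo is the linker histone of oocytes, and nucleoplasmin 2 (Npm2) is an oocyte histone chaperone that is needed for normal chromatin after fertilization.

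Stored oocyte mRNAs carry short sequences near their 3′ end that act on the poly(A) tail. The last 100 bases of the annotated 3′ untranslated regions (UTRs) were therefore searched on the transcript strand for a polyadenylation signal (AATAAA or ATTAAA) and for a cytoplasmic polyadenylation element (TTTTAT or TTTTAAT). A 3′ UTR of this length was annotated on the mm9 build for 9 of the 10 genes, and 7 of these held a polyadenylation signal, against 78% of 18374 genes. A cytoplasmic polyadenylation element lay in the window of 2 genes, H1foo and Asf1b, against 17.5% of all genes. Neither motif was found in the windows of Npm1 and Nap1l4, which says only that these letters are not there. The sites of the 3 genes that were higher in Zar1/2-null MII oocytes (H1foo, Npm2 and Asf1b) are shown 5′ to 3′ with the motif in capitals. H1foo is at chr6:115894956-115900254 on the plus strand, Npm2 at chr14:71047109-71052891 on the minus strand and Asf1b at chr8:86479406-86494096 on the plus strand. The sites are at chr6:115900220-115900249 and chr6:115900180-115900199 for H1foo, chr14:71047111-71047140 for Npm2, and chr8:86494064-86494093 and chr8:86494039-86494058 for Asf1b.
H1foo polyadenylation signal: tcataatttatcAATAAAgactttgtattc
H1foo cytoplasmic polyadenylation element: ctgaagcTTTTATtgtctaa
Npm2 polyadenylation signal: gcctagggccacAATAAAatttgcatgatc
Asf1b polyadenylation signal: ggttgtcttaagAATAAAagcacttcatct
Asf1b cytoplasmic polyadenylation element: taaaaggTTTTATattaaaa
The element began 45 bases before the polyadenylation signal in H1foo and 30 bases before the last of 3 such signals in Asf1b. The other 2 signals of Asf1b were ATTAAA, and 1 of them, left in lower case, directly follows the printed element. These matches describe the sequence, and no use of the sites was measured.

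The deposited FPKM had been multiplied by a factor from ERCC spike-in RNA, of which every lysate had received the same amount. The reference was the same-numbered WT growing library, so the values stand for RNA per sample relative to that library. Replicates 1 and 2 thus rest on different references. The factors recovered from the table were 1 in WT growing libraries, 0.697 to 0.836 in WT GV, 0.225 to 0.228 in WT MII, 0.779 to 0.862 in Zar1/2-null growing, 0.533 to 0.583 in Zar1/2-null GV and 0.252 to 0.283 in Zar1/2-null MII libraries. Zar1l, the listed symbol of Zar2, stood at 639 and 644 FPKM in WT and 17.5 and 13.2 FPKM in Zar1/2-null growing oocytes, at 533 and 504 against 20.9 and 19.6 FPKM at GV, and at 3.13 and 4.72 against 1.36 and 1.01 FPKM at MII. Zar1 itself had 603 and 725 against 407 and 459.9 FPKM in growing, 439 and 423 against 136 and 203 FPKM in GV, and 83.6 and 72.4 against 189.6 and 194 FPKM in MII oocytes, so it was higher in the Zar1/2-null MII libraries. The sum of 10 oocyte markers was 16175 to 17162 FPKM in WT and 15268 to 17052 FPKM in Zar1/2-null growing oocytes and 9644 to 11467 and 8619 to 9969 FPKM at GV. At MII it was 3437 to 4018 and 5944 to 6782 FPKM, higher in Zar1/2-null oocytes without overlap. The sum of 13 granulosa and cumulus markers was 21.4 to 24.9 FPKM in WT and 5.96 to 10.9 FPKM in Zar1/2-null growing oocytes, 12.7 to 14.7 and 9.92 to 11.7 FPKM at GV and 3.95 to 4.03 and 6.05 to 7.29 FPKM at MII. Of the 13, 2 and 3 were at 0 in both growing libraries, 3 and 1 at GV and 8 and 8 at MII. The sum of 7 immune markers was 0.498 to 1.28 FPKM in WT and 3.06 to 3.31 FPKM in Zar1/2-null growing oocytes and at most 2.72 FPKM at the later stages. The sum of 5 oviduct epithelium markers was at most 1.21 FPKM. The part of these shifts in the differences below was not tested.

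H1foo was among the most abundant transcripts of these oocytes. Since FPKM is a level per transcript length, the 10 genes were ordered within a group by mean level. The places of Npm1 and Nap1l1 are uncertain. Of their 50-base stretches, 48.5% and 35.7% occur elsewhere in the mm9 genome, and only uniquely mapped reads had been kept. In WT growing oocytes the order of mean levels was H1foo, Npm2, Npm1, Asf1a, Nasp, Asf1b, Nap1l1, Nap1l4, Chaf1a and Hira, and the libraries of neighbours in this order did not overlap. H1foo held place 5 among all genes of the table in WT growing, place 4 in WT GV and place 3 in WT MII oocytes, and places 4, 4 and 1 in the Zar1/2-null groups. H1foo made up 55.5% to 57.5% of the summed FPKM of the 10 genes in the WT growing and GV libraries, and 68.6% and 67.9% in the WT MII libraries. This sum includes the uncertain level of Npm1. At the other end, Hira, the chaperone of the replacement histone H3.3, was at or under 1.18 FPKM in every library, so that its differences rest on values around the limit used for keeping genes.

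**Figure D1:**
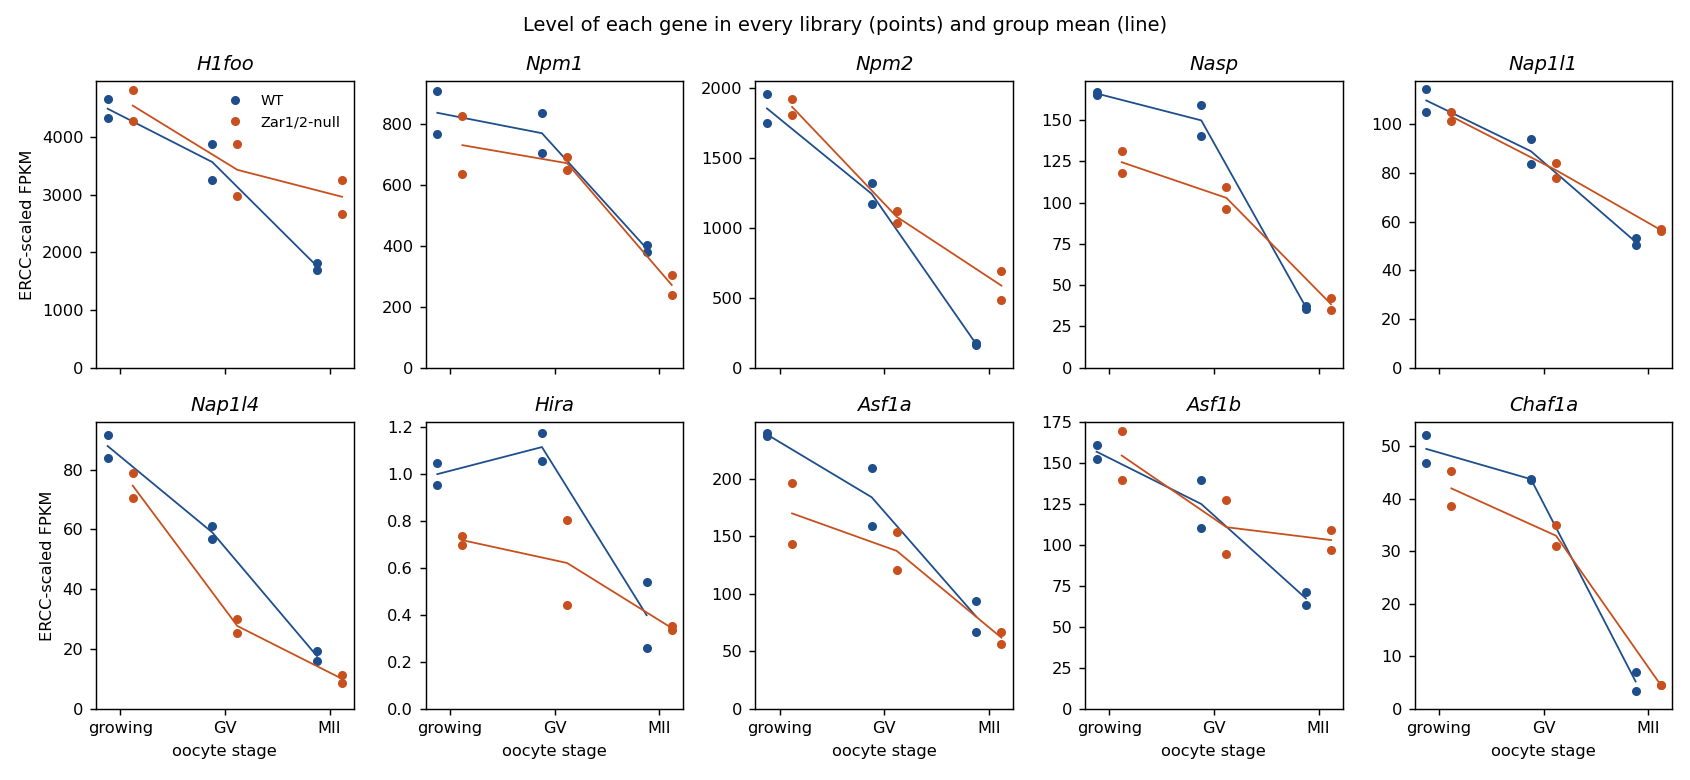
ERCC-scaled FPKM (y axis, linear from 0, with its own range for each gene) of the 10 genes by oocyte stage (x axis); each point is 1 library of 10 oocytes, WT or Zar1/2-null, and lines join the group means. At MII the Zar1/2-null libraries lie above the WT libraries for Npm2 (692 and 484 against 162 and 175 FPKM), H1foo, Asf1b and Nap1l1. At GV they lie below them for 7 of the 10 genes, Nap1l4 and Nasp among them.

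H1foo, Npm2 and Asf1b were higher in Zar1/2-null than in WT MII oocytes, and Nap1l4 and Npm1 were lower. At GV, Nap1l4, Nasp and Hira were lower in Zar1/2-null oocytes and none was higher, and in growing oocytes none of the 10 passed the test. Differences are log2 differences of FPKM + 1 between Zar1/2-null and WT means, from limma fitted to all 12 libraries with Benjamini-Hochberg adjustment over 11502 genes. The added 1 FPKM makes the difference of a low gene, such as Hira, smaller. In growing oocytes 0 of the 10 genes were called higher (10.6% of all genes) and 0 lower (24.4% of all genes), and 2 of them, Nasp and Asf1a, had an unadjusted p under 0.05. At GV 0 were called higher (2.83%) and 3 lower (40.6%). At MII 3 were called higher (21.5%) and 2 lower (10.3%). The median difference of the 10 genes was -0.21 in growing, -0.30 in GV and 0.01 in MII oocytes, beside -0.16, -0.38 and 0.06 over all genes, and at MII the called members went in both directions. WT and Zar1/2-null libraries stood apart, with the Zar1/2-null values lower, for 5 of the 10 genes in growing (47.4% of all genes) and 7 in GV oocytes (63.6%), and with these values higher for 0 in either (22.4% and 6.79%). At MII the Zar1/2-null values were higher without overlap for 4 (43.5%) and lower for 2 (27.8%). With 2 libraries against 2, no exact permutation test can give a p below 0.333. A lower value in every oocyte and a low value in some of the 10 pooled oocytes, or fewer intact cells and less RNA per cell, cannot be told apart in these libraries. The same holds for mRNA amount and poly(A) tail length, since the library preparation primes on these tails. At MII, and in the change from GV to MII, genotype and the meiotic stage reached cannot be told apart either.

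**Figure D2:**
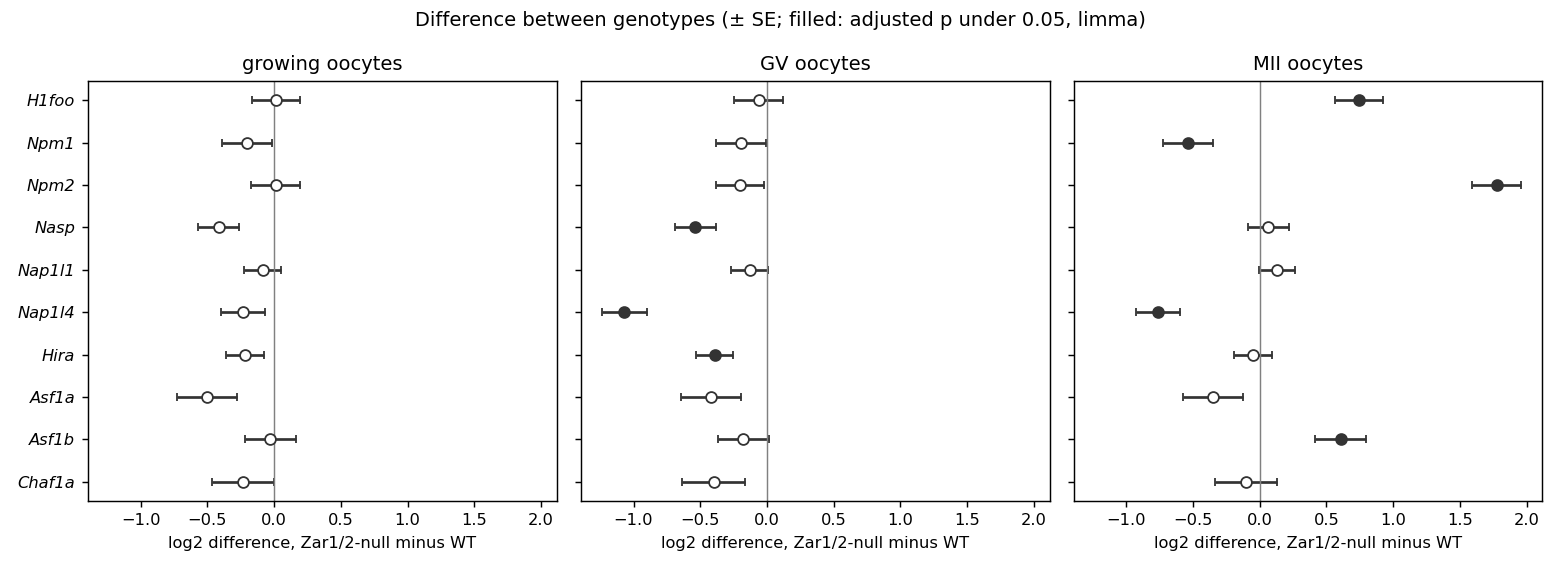
Log2 difference of FPKM + 1 between Zar1/2-null and WT oocytes (x axis, with standard error) for the 10 genes in growing, GV and MII oocytes; filled points had an adjusted p under 0.05 in limma. At MII, Npm2 (1.78), H1foo (0.75) and Asf1b (0.61) lie to the right and Nap1l4 (-0.76) and Npm1 (-0.54) to the left.

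H1foo, the oocyte linker histone, had 4323 and 4656 FPKM in WT growing, 3871 and 3258 in WT GV and 1819.9 and 1700.0 in WT MII libraries. The Zar1/2-null libraries had 4814 and 4273 FPKM in growing, 2985 and 3874 in GV and 3254 and 2672 in MII oocytes. The genotypes overlapped in growing and GV oocytes and stood apart at MII, where both Zar1/2-null values were higher. The MII difference was 0.75 (standard error 0.18, adjusted p = 0.00830), a 1.68-fold higher mean. It was larger than the difference at GV by 0.81 on the log2 scale (standard error 0.26, adjusted p = 0.0319 for the interaction). From GV to MII, H1foo dropped by 1.01 on the log2 scale in WT (standard error 0.18, adjusted p = 2.47e-04), while in Zar1/2-null oocytes its libraries overlapped between the stages (-0.21, standard error 0.18, adjusted p = 0.328). The call at MII was lost when libraries were scaled to a common median (0.38, adjusted p = 0.105), without a filter on low genes (adjusted p = 0.249), with the MII libraries alone (adjusted p = 0.0844) and without WT MII replicate 2 (adjusted p = 0.0592) or Zar1/2-null MII replicate 1 (adjusted p = 0.0679). The interaction did not pass with the ERCC factor divided out (0.11, adjusted p = 0.697), turned to -0.15 with median scaling, and was lost when any library was left out other than WT GV replicate 2, Zar1/2-null GV replicate 2, Zar1/2-null MII replicate 2 and the Zar1/2-null growing libraries (adjusted p 0.0550 to 0.125).

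Npm2, the oocyte nucleoplasmin, had the largest genotype difference of the 10 genes. Its level was 1751 and 1963 FPKM in WT growing, 1322 and 1169 in WT GV and 162 and 175 in WT MII libraries, and 1927 and 1809, 1036 and 1126, and 692 and 484 FPKM in the corresponding Zar1/2-null libraries. The growing libraries of the genotypes overlapped, the Zar1/2-null GV libraries were slightly lower, and at MII both Zar1/2-null libraries were well above the WT libraries. The MII means were 588 ± 147 and 168 ± 9.51 FPKM (SD, n = 2), 3.49-fold apart, with a log2 difference of 1.78 (standard error 0.18, adjusted p = 1.76e-05). Npm2 was the only gene of the 10 to differ more than 3-fold between genotypes at any stage. Its fold was 2.93 before the ERCC scaling and 2.87 without Zar1/2-null MII replicate 1, under the limit. Of all genes, 7.49% exceeded this fold upwards and 1.32% downwards at MII, 0.461% and 4.2% at GV and 0.982% and 3.54% in growing oocytes. Its MII difference passed the test under every alternative run. The interaction with the GV stage was 1.98 (standard error 0.26, adjusted p = 1.79e-04). Before maturation Npm2 was already lower in GV than in growing oocytes, by -0.58 in WT (standard error 0.18, adjusted p = 0.0349) and -0.79 in Zar1/2-null oocytes (standard error 0.18, adjusted p = 0.00348), and neither was called with the ERCC factor divided out (-0.19, adjusted p = 0.394, and -0.23, adjusted p = 0.191).

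Npm1, the widely expressed nucleophosmin of the nucleolus, went the other way at MII. It had 908 and 767 FPKM in WT growing, 836 and 705 in WT GV and 402 and 381 in WT MII libraries, and 827 and 635, 692 and 651, and 305 and 239 FPKM in the Zar1/2-null libraries. The MII libraries did not overlap, and the difference was -0.54 (standard error 0.19, adjusted p = 0.0497). This call sat at the threshold and was lost when any library was left out other than Zar1/2-null MII replicate 1 and the Zar1/2-null growing libraries, with adjusted p up to 0.290. The MII call of Npm1 was also lost without a filter (adjusted p = 0.143 in limma) and with the MII libraries alone (0.0884). Its interaction with GV was not called in the main fit (-0.34, adjusted p = 0.327). That interaction was called with the ERCC factor divided out (-1.04, adjusted p = 0.00257) and under median scaling (-1.30, adjusted p = 0.00382). Of the 50-base stretches of the Npm1 transcript, 48.5% occur elsewhere in the mm9 genome, and only uniquely mapped reads had been kept, so the level of Npm1 is uncertain. For Nap1l1 that share was 35.7%, for Nasp 1.42% and for the other members 0%.

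Within a library the ratio of 2 genes does not contain the ERCC factor. Npm2 exceeded Npm1 by 1.93 and 2.56 times in WT growing and 1.58 and 1.66 times in WT GV libraries, and fell to 0.402 and 0.460 times Npm1 in WT MII libraries. In Zar1/2-null oocytes the ratio was 2.33 and 2.85 in growing, 1.496 and 1.73 in GV and 2.27 and 2.03 in MII libraries. The ratio was lower in WT than in Zar1/2-null MII libraries without overlap. Since the level of Npm1 is uncertain, no order of the nucleoplasmin transcripts is read from it. H1foo exceeded Npm2 by 11.3 and 9.70 times in WT MII and by 4.70 and 5.52 times in Zar1/2-null MII libraries, and by 2.36 to 3.44 times in all earlier libraries.

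**Figure D3:**
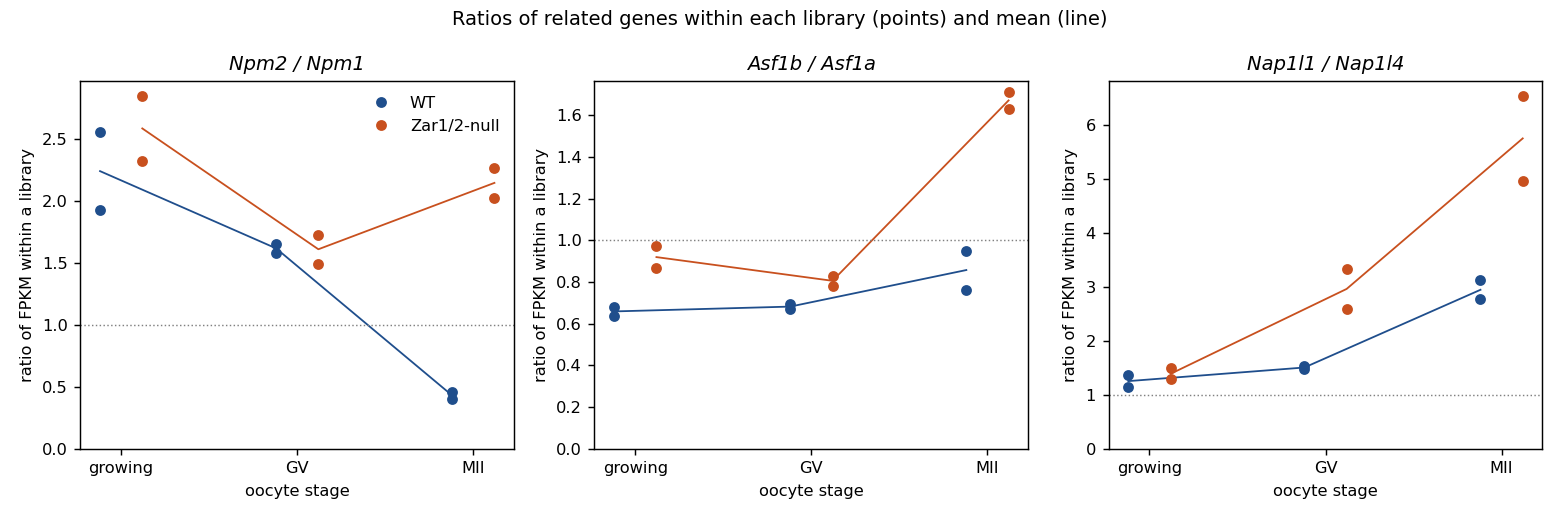
Ratio of FPKM within each library (y axis, from 0) for Npm2 to Npm1, Asf1b to Asf1a and Nap1l1 to Nap1l4 by stage; points are libraries, lines join means and the dotted line marks equal levels. The WT MII libraries have the lowest listed ratios of Npm2 to Npm1 (0.402 and 0.460), with the level of Npm1 uncertain, and the Zar1/2-null MII libraries alone rise above 1 for Asf1b to Asf1a (1.63 and 1.71).

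Nap1l4, a chaperone of H2A-H2B related to Nap1l1, was lower in Zar1/2-null oocytes at GV and at MII. It had 84.0 and 91.7 FPKM in WT growing, 61.2 and 56.7 in WT GV and 16.1 and 19.2 in WT MII libraries, against 70.3 and 78.9, 25.3 and 30.04, and 11.3 and 8.70 FPKM in Zar1/2-null libraries. The Zar1/2-null values were lower in all stages without overlap, most at GV. The difference was -1.07 at GV (standard error 0.17, adjusted p = 6.18e-04), a level 2.13-fold lower, and -0.76 at MII (standard error 0.17, adjusted p = 0.00448). In growing oocytes it was -0.23 (standard error 0.17, adjusted p = 0.305). The GV call held under every alternative run, with -0.63 where the ERCC factor was divided out and -0.49 under median scaling, and the MII call was lost without Zar1/2-null MII replicate 2 (adjusted p = 0.0505). The GV difference exceeded that in growing oocytes by -0.83 (standard error 0.24, adjusted p = 0.0409), where 11.3% of all genes were lower and 2.58% higher by this test, and with the ERCC factor divided out this no longer passed (-0.68, adjusted p = 0.0856). It was also lost when any library was left out other than Zar1/2-null GV replicate 2 and the Zar1/2-null MII libraries (adjusted p 0.0521 to 0.127).

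Nap1l1 did not pass a test between genotypes at any stage, with differences of -0.09, -0.13 and 0.13 (standard error 0.14 each). Its libraries had 114 and 105 FPKM in WT and 105 and 101 in Zar1/2-null growing, 93.9 and 83.8 against 84.2 and 77.9 in GV, and 50.2 and 53.1 against 56.2 and 56.9 FPKM in MII oocytes. The genotypes overlapped in growing and GV oocytes, and at MII both Zar1/2-null libraries were slightly higher. The ratio of Nap1l1 to Nap1l4 was 1.36 and 1.14 in WT against 1.49 and 1.28 in Zar1/2-null growing, 1.53 and 1.48 against 3.33 and 2.59 in GV, and 3.12 and 2.77 against 4.96 and 6.54 in MII libraries. It overlapped between genotypes in growing oocytes and was higher in Zar1/2-null oocytes at both later stages.

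Among the H3-H4 chaperones, Asf1a and Asf1b, the paralogs that hand H3-H4 dimers to the assembly factors, differed from each other. Asf1b had 161 and 153 FPKM in WT growing, 139.9 and 110.5 in WT GV and 71.3 and 63.6 in WT MII libraries, and 169.9 and 139.7, 94.5 and 127, and 109 and 96.9 FPKM in Zar1/2-null libraries. The genotypes overlapped up to GV and separated at MII, where the difference was 0.61 (standard error 0.19, adjusted p = 0.0301), and the interaction with GV was 0.78 (standard error 0.27, adjusted p = 0.0427). The MII call was lost without any 1 of the MII libraries (adjusted p 0.0590 to 0.158), without a filter (0.0911) and with median scaling (0.24, adjusted p = 0.277), and the interaction without the ERCC scaling (0.10, adjusted p = 0.770) and when any library was left out other than WT GV replicate 2, Zar1/2-null GV replicate 2 and the Zar1/2-null growing libraries (adjusted p 0.0599 to 0.148). Asf1a had 237 and 240.2 against 196 and 143 FPKM in growing, 209 and 159 against 121 and 154 in GV, and 93.3 and 66.9 against 67.0 and 56.7 in MII oocytes (WT, then Zar1/2-null). It lay lower in Zar1/2-null growing and GV libraries and overlapped by a narrow margin at MII, with differences of -0.50, -0.42 and -0.35 (standard error 0.22 each, adjusted p = 0.104, 0.151 and 0.278). At MII the Asf1a difference was called with the ERCC factor divided out (-0.60, adjusted p = 0.0127) and under median scaling (-0.72, adjusted p = 0.0181). The ratio of Asf1b to Asf1a was 0.681 and 0.636 in WT against 0.865 and 0.973 in Zar1/2-null growing, 0.669 and 0.695 against 0.781 and 0.830 in GV, and 0.764 and 0.951 against 1.63 and 1.71 in MII libraries. It was higher in Zar1/2-null oocytes without overlap at all stages, and Asf1b exceeded Asf1a in the Zar1/2-null MII libraries alone.

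Nasp, which binds H3-H4 and protects their stored pool, had 167 and 165 against 131 and 118 FPKM in growing, 159 and 140.5 against 109 and 96.2 in GV, and 35.6 and 37.5 against 42.2 and 34.8 in MII oocytes (WT, then Zar1/2-null). It was lower in Zar1/2-null oocytes without overlap in growing and GV oocytes and overlapped at MII. The GV difference was -0.54 (standard error 0.15, adjusted p = 0.0156), and that in growing oocytes was -0.42 (standard error 0.15, adjusted p = 0.0556), which passed without either Zar1/2-null GV library (0.0468 and 0.0466). No call was made in limma at GV when the ERCC factor was divided out (-0.09, adjusted p = 0.682) or with the GV libraries alone (adjusted p = 0.0809). With median scaling the difference turned to 0.05 (adjusted p = 0.838). The call was also lost without WT GV replicate 1 (-0.45) or Zar1/2-null GV replicate 2 (-0.45). Chaf1a, the large subunit of chromatin assembly factor 1, had 46.8 and 52.1 against 38.6 and 45.2 FPKM in growing, 43.8 and 43.6 against 34.9 and 31.0 in GV, and 3.37 and 7.03 against 4.61 and 4.45 in MII oocytes. Its Zar1/2-null values were lower at the earlier stages and lay between the WT values at MII, and no genotype difference passed the test (-0.24, -0.40 and -0.10, standard error 0.23 each), though that at GV did without either WT MII library (adjusted p = 0.0472 and 0.0473). Hira had 1.05 and 0.953 against 0.700 and 0.738 FPKM in growing, 1.06 and 1.18 against 0.803 and 0.441 in GV, and 0.258 and 0.540 against 0.353 and 0.336 in MII oocytes. Its GV difference of -0.39 (standard error 0.14, adjusted p = 0.0434 in limma) kept its call in 7 of 20 alternatives. It did not pass with the ERCC factor divided out (-0.23, adjusted p = 0.536) or under median scaling (-0.15, adjusted p = 0.682). Nor did it pass with group-averaged factors (adjusted p = 0.0577), 0.1 FPKM added (0.0754), no filter (0.0804), no trend (0.0521) or the GV libraries alone (0.0911). The call was also lost without either WT GV library (-0.43 and -0.35), Zar1/2-null GV replicate 2 (-0.23) or either Zar1/2-null MII library (-0.39 each).

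From GV to MII all 10 genes were lower in WT oocytes, as were 93.4% of all genes, and 7 were lower in Zar1/2-null oocytes (68.7% of all genes), the exceptions being H1foo, Asf1b and Hira. None was higher in WT (0.104%) or in Zar1/2-null oocytes (0.209%). In WT the decrease was steepest for Chaf1a (-2.92, standard error 0.23, 8.40-fold) and Npm2 (-2.88, standard error 0.18, 7.39-fold), followed by Nasp (-2.002) and Nap1l4 (-1.69). The change was -0.77 for Nap1l1 and -0.60 for Hira. The added 1 FPKM makes that of Hira small, since its means were 2.80-fold apart and its change was -1.34 with 0.1 FPKM added. The median change was -1.10 for the 10 genes and -1.28 for all genes. In Zar1/2-null oocytes Chaf1a (-2.62, 7.27-fold), Nasp (-1.40), Nap1l4 (-1.39) and Npm1 (-1.31) decreased most, Npm2 decreased by 0.90 on the log2 scale, and the medians were -1.02 for the 10 genes and -0.72 for all genes. The change from GV to MII differed between genotypes for 3 of the 10 genes, H1foo, Npm2 and Asf1b, each smaller in Zar1/2-null oocytes, beside 33.9% of all genes. None of the 10 and 0.643% of all genes had an interaction in the other direction. The MII libraries lay below the GV libraries without overlap for all 10 genes in WT (97.1% of all genes) and for 8 in Zar1/2-null oocytes (84.6%), and above them for 0 in WT (0.2%) and 0 in Zar1/2-null oocytes (1.23%).

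These decreases hold on the scale of RNA per oocyte. Without the ERCC scaling the median of all genes from WT GV to MII moved by 0.85 on the log2 scale, and relative to the other RNA of the library 5 of the 10 genes were higher in WT MII than in WT GV oocytes, namely H1foo (0.74), Npm1 (0.78), Nap1l1 (0.97), Asf1a (0.55) and Asf1b (0.87), while Npm2 (-1.13) and Chaf1a (-1.37) remained lower. With libraries scaled to a common median, which moved that median by 1.44, 8 were higher in WT and none lower, and Npm2 (-0.18, adjusted p = 0.328) and Chaf1a (-0.45, adjusted p = 0.0926) were the genes not called. In Zar1/2-null oocytes Chaf1a was lower under each of the 3 scalings.

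**Figure D4:**
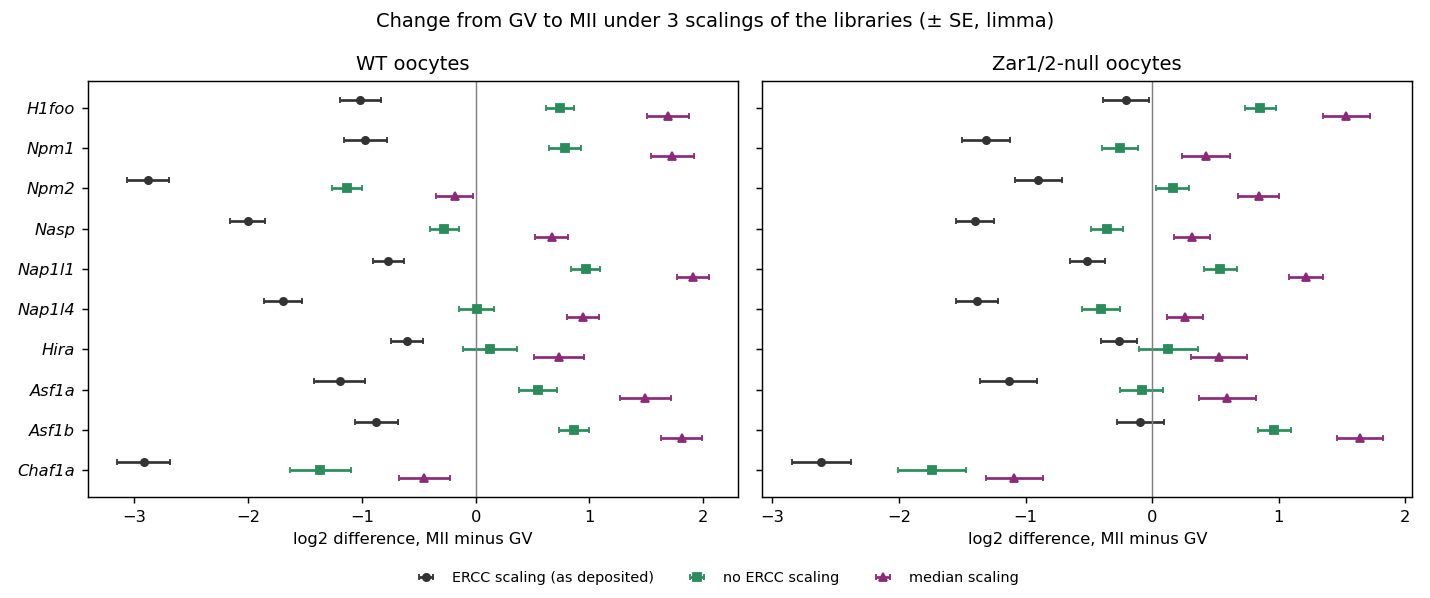
Log2 difference of FPKM + 1 between MII and GV oocytes (x axis, with standard error) for the 10 genes in WT and Zar1/2-null oocytes, with the deposited ERCC scaling, without it and with libraries scaled to a common median. In WT all 10 lie left of 0 with the ERCC scaling, and 8 lie right of 0 with median scaling.

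Between growing and GV oocytes the levels moved less. In WT 2 of the 10 genes were lower, Npm2 and Nap1l4 (-0.57, standard error 0.17, adjusted p = 0.0270), beside 28.7% of all genes, and 0 were higher (2.77%). In Zar1/2-null oocytes 4 were lower, Nap1l4 (-1.40, standard error 0.17, adjusted p = 5.72e-05), Npm2, Asf1b (-0.48, standard error 0.19, adjusted p = 0.0447) and Nap1l1 (-0.34, standard error 0.14, adjusted p = 0.0472), beside 55.9% of all genes, and 0 were higher (4.76%). The WT calls were lost without any 1 of the 4 libraries compared, that of Asf1b when any library was left out other than the WT GV libraries, Zar1/2-null growing replicate 2 and Zar1/2-null GV replicate 2 (adjusted p up to 0.291) and that of Nap1l1 when any but the WT GV libraries was (adjusted p up to 0.149), whereas that of Nap1l4 in Zar1/2-null oocytes was kept under every alternative run. The GV libraries lay below the growing libraries without overlap for 8 of the 10 genes in WT (59.5% of all genes) and 7 in Zar1/2-null oocytes (68.9%), and above them for Hira in WT (1 gene, 10.2%) and 0 in Zar1/2-null oocytes (9.16%).

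Genes of the same machinery outside the 10 were read from 3 further lists. The counts stand beside the shares of all genes given above, which were 10.6% higher and 24.4% lower in growing, 2.83% and 40.6% in GV and 21.5% and 10.3% in MII oocytes. Of 11 other chaperones of H2A-H2B that were kept, 1 was lower in Zar1/2-null growing oocytes, 3 were lower and 1 was higher at GV, and 1 was lower at MII. Ncl, nucleolin, was lower in growing oocytes (58.2 and 58.0 against 40.8 and 37.4 FPKM in WT and Zar1/2-null libraries, -0.56), and Ssrp1, a subunit of the FACT complex, at GV (15.1 and 17.0 against 10.2 and 9.26 FPKM, -0.66). Of 20 other H3-H4 chaperones and their partners, 2 were higher and 2 lower in growing oocytes, 9 were lower at GV, and 4 were higher and 1 lower at MII. Dnajc9, a co-chaperone that binds H3-H4, and Hirip3, which binds HIRA, were lower in growing oocytes (100.5 and 95.8 against 69.2 and 52.6 FPKM, and 34.0 and 33.6 against 23.6 and 23.6 FPKM). Both were also lower at GV (91.8 and 71.7 against 44.0 and 56.6 FPKM, and 39.4 and 40.7 against 25.8 and 22.7 FPKM). Spty2d1, an H3-H4 chaperone, had the largest GV difference of this list (15.7 and 13.3 against 5.83 and 7.15 FPKM, -1.05, standard error 0.15, adjusted p = 3.36e-04). Of 5 other linker histones kept, 1 was higher and 1 lower in growing oocytes, 3 were lower at GV and 1 was lower at MII. Hist1h1a had 24.1 and 28.7 FPKM in WT and 7.67 and 8.25 FPKM in Zar1/2-null growing oocytes (-1.61, standard error 0.20, adjusted p = 1.55e-04) and 19.7 and 15.8 against 9.48 and 9.95 FPKM at GV (-0.80). H1f0, the replacement linker histone of non-dividing cells, had 10.9 and 10.5 against 3.78 and 4.95 FPKM at GV (-1.13, standard error 0.15, adjusted p = 2.39e-04). Replication-dependent histone genes such as Hist1h1a are close in sequence to each other and their mRNA usually lacks a poly(A) tail, on which the library preparation primes, so their level is uncertain. Beside these linker histones, of which none of the 5 kept passed 28.7 FPKM in any library, H1foo was never below 1700.0 FPKM.

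Over the 12 libraries, the genes whose log2 levels ran closest to H1foo, among 4326 genes that averaged 10 FPKM or more, were Gmds (Pearson r = 0.992), Rnf5 (0.9901) and Rnls (0.988), and closest to Npm2 were Kif17 (0.997), Pstk (0.997) and Cct3 (0.996). Among the members, Npm2 had an r of 0.975 and Asf1b of 0.983 with H1foo. Npm1 had 0.674, the lowest of the 8 members compared with H1foo, since Hira was under the limit of 10 FPKM. Each point is a library whose values share 1 ERCC factor, which pushes all such correlations up, so they describe the likeness of the profiles only.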

How the data were processed

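RNA was measured by Smart-seq2, which primes on poly(A) tails, in 12 libraries of 10 oocytes, assigned to genotype, stage and replicate by the sample labels. Reads cut to 50 bp by the authors were aligned to mm9 (TopHat2 2.1.1), and those with a unique position gave FPKM of UCSC gene models (Cufflinks 2.2.1). The FPKM deposited by the authors had been multiplied by an ERCC factor, whose reference was the same-numbered library of WT growing oocytes. The study lists the total reads of each library, but the files hold no read counts per gene. The counting error behind a value is therefore unknown and no count test was run.

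Of 23230 genes, the 11502 that reached 1 FPKM in any of 12 libraries were kept. log2(FPKM + 1) was fitted with limma 3.58.1 in R 4.3.3 (a term for each group, all libraries, eBayes with a trend), with Benjamini-Hochberg adjusted p-values and a threshold of 0.05. Folds used group means of at least 1 FPKM. The script was tested on simulated data. The labels do not state separate animals for the 2 libraries of a group, so p-values measure only the spread between these libraries.

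The members and lists were chosen with earlier results of these data known. Named beside the members were the targeted genes, for each list and genotype comparison up to 2 called genes per direction whose higher group averaged 10 FPKM or more, and the 3 genes most alike to H1foo and to Npm2. Sequences came from the mm9 genome with its GENCODE annotation. Alternatives were no ERCC scaling, median scaling, group-averaged ERCC factors, a pseudocount of 0.1 FPKM, a mean of at least 5 FPKM, no filter, no trend, only the groups compared, a replicate block, a fold floor of 0.1 FPKM, and leaving out each library.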

Additional observations from a re-analysis of the deposited data

Results flagged for a closer look

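The genotype difference of 4 members changed between stages by an interaction test in limma with Benjamini-Hochberg adjustment. The difference between Zar1/2-null and WT rose from GV to MII for 3 of the 10 members, beside 33.9% of all genes. From growing to GV oocytes this difference fell for 1 member, beside 11.3% of all genes. Both counts were near the shares of all genes. Between GV and MII the difference of Npm2 rose by 1.98 on the log2 scale (adjusted p = 1.79e-04), that of H1foo by 0.81 (adjusted p = 0.0319) and that of Asf1b by 0.78 (adjusted p = 0.0427), with both Zar1/2-null MII libraries above both WT MII libraries for each of these genes. Between growing and GV oocytes the difference of Nap1l4 changed by -0.83 (adjusted p = 0.0409), with both Zar1/2-null libraries below both WT libraries at both stages. The change of Npm2 was called under every alternative run, and those of H1foo, Asf1b and Nap1l4 were lost without the ERCC scaling (adjusted p = 0.697, 0.770 and 0.0856). No group has 4 or more libraries, so single libraries were not screened.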

How the results depend on the processing

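Of 1080 member values with 1 library left out, 960 kept their direction and side of the threshold, as did 611 of 781 under the other settings. Of the others, 37 and 67 changed sign while called in neither setting. A further 41 that were called in the main or the other setting changed sign, all of them without the ERCC scaling or with median scaling. Without the ERCC scaling the change from GV to MII in WT was 0.74 for H1foo, 0.78 for Npm1, 0.97 for Nap1l1, 0.55 for Asf1a, 0.87 for Asf1b, 0.13 for Hira and 0.0083 for Nap1l4, and in Zar1/2-null oocytes 0.86 for H1foo, 0.16 for Npm2, 0.54 for Nap1l1 and 0.96 for Asf1b. The change from growing to GV in Zar1/2-null oocytes was then 0.0663 for Asf1b, 0.21 for Nap1l1 and 0.44 for Npm1, and the genotype difference of H1foo at GV was 0.39 (adjusted p = 0.0400 in limma). With median scaling the change from GV to MII in WT was 1.69 for H1foo, 1.73 for Npm1, 1.91 for Nap1l1, 1.49 for Asf1a, 1.81 for Asf1b, 0.73 for Hira, 0.94 for Nap1l4 and 0.67 for Nasp, and in Zar1/2-null oocytes 1.54 for H1foo, 0.43 for Npm1, 0.84 for Npm2, 1.22 for Nap1l1, 0.59 for Asf1a, 1.64 for Asf1b, 0.26 for Nap1l4 and 0.32 for Nasp. The change from growing to GV in Zar1/2-null oocytes was then 0.27 for Asf1b, 0.41 for Nap1l1, 0.48 for Nasp and 0.65 for Npm1, the genotype difference at GV was 0.46 for Nap1l1 and 0.0505 for Nasp, and the interaction between MII and GV was -0.17 for Asf1b, -0.15 for H1foo, -0.69 for Nap1l1 and -0.68 for Nap1l4.

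Counts of called members moved as follows. Without the ERCC scaling, 1 was higher and 1 lower at GV between genotypes, 0 lower from growing to GV in WT, 1 higher and 1 lower in Zar1/2-null, 5 higher and 2 lower from GV to MII in WT, 3 higher and 3 lower in Zar1/2-null oocytes, 0 lower in the interaction of GV and growing, 1 higher and 1 lower in that of MII and GV, and 0 more than 3-fold apart at MII. With median scaling the counts were 1 higher and 1 lower at GV, 1 higher at MII, 0 lower from growing to GV in WT, 3 higher and 1 lower in Zar1/2-null, 8 higher and 0 lower from GV to MII in WT, 5 higher and 1 lower in Zar1/2-null oocytes, 0 lower in the interaction of GV and growing, 1 higher and 3 lower in that of MII and GV, and 0 more than 3-fold apart at MII. In growing oocytes the count of lower members was 1 without a trend, 1 with only the groups compared and 2 with group-averaged factors. The lower interaction of GV and growing was not called with a pseudocount of 0.1 FPKM, with a mean of at least 5 FPKM or without a filter (0 members each). Without a filter 1 member was higher and 1 lower at MII, 1 lower from growing to GV in WT and 1 higher in the interaction of MII and GV. With only the groups compared, 1 was lower at GV, 1 lower at MII, 1 lower from growing to GV in WT and 2 in Zar1/2-null oocytes. Leaving out each library gave 0 to 1 lower members in growing, 1 to 4 lower in GV, 0 to 2 lower and 1 to 3 higher in MII oocytes, 0 to 2 lower from growing to GV in WT and 2 to 4 in Zar1/2-null oocytes, 0 to 1 in the interaction of GV and growing and 1 to 4 in that of MII and GV, and 0 to 1 member more than 3-fold apart at MII, the last chosen after seeing the data. Among all genes, higher and lower calls between genotypes went from 1224 and 2801 to 1711 and 1412 in growing, from 325 and 4666 to 827 and 1554 in GV and from 2472 and 1183 to 2831 and 2694 in MII oocytes without the ERCC scaling, which moved the median difference by 0.24, 0.34 and -0.07. With median scaling they were 1182 and 1495, 1075 and 1059, and 2740 and 3436. Calls over stages are given without the ERCC scaling, then with median scaling. Growing to GV gave 421 and 372, then 201 and 263 in WT, and 1646 and 2455, then 2244 and 1625 in Zar1/2-null oocytes. GV to MII gave 2267 and 5473, then 4792 and 3655 in WT, and 2248 and 4656, then 4415 and 3151 in Zar1/2-null oocytes. The interaction of GV and growing gave 255 and 428, then 258 and 156. That of MII and GV gave 1742 and 743, then 1567 and 1720. The cause of the moves in this section was not tested.

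The replicate numbers were shared by all groups. Over genes, the deviations of same-numbered libraries correlated by -0.12 to 0.16. Such a correlation cannot show a shift that whole same-numbered libraries share, for example through their common ERCC reference. Same-numbered libraries are linked by that reference, and the main fit did not treat them as pairs. Whether they were also collected as pairs was not settled. With a replicate block, 1 member was lower in growing oocytes (Nasp, -0.42, adjusted p = 0.0307 in limma), Hira at GV was not called (adjusted p = 0.0509), and H1foo from growing to GV in Zar1/2-null oocytes (-0.42, adjusted p = 0.0351) and the interaction of MII and GV for Nasp (0.60, adjusted p = 0.0291) were called.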
